A study of Mus musculus with 22 samples.

Results

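The genes of leukocyte adhesion described here are 10 of the 24405 genes counted in mouse lung. They are Vcam1, Icam1 and Icam2, the immunoglobulin-type ligands that endothelium presents to leukocytes, the selectin genes Sele and Selp, the selectin ligand gene Selplg, and the integrin subunit genes Itga4, Itgal, Itgam and Itgb2. They were taken by symbol from the deposited gene counts, and each symbol had 1 row. Polyadenylated lung RNA (right lung, caudal lobes) was sequenced from C57BL/6 mice, which the design text calls old wild type without giving an age. The labels cross sensitization with ovalbumin (OVA), an egg white protein used as an experimental allergen, or with saline, and a dose of 3 µg of airborne particulate matter (PM) of goat-farm origin or none. The study has 6 libraries of the saline arm without PM, 5 of the saline arm with PM, 6 of the OVA arm without PM and 5 of the OVA arm with PM. The arms are named after the label for sensitization, since the protocol also speaks of OVA-sensitized mice given saline, and saline-arm mice may therefore have met the allergen. Nothing in the labels ties each library to its own animal, and p-values therefore measure the spread between these libraries, which may be technical.

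Leukocytes leave the blood in steps. Selectins on activated endothelium and platelets bind sugar-bearing ligands such as PSGL-1, the product of Selplg, and slow the cells to a roll. Chemokine signals then switch integrins to a binding state, and firm arrest follows when LFA-1 (Itgal with Itgb2) and Mac-1 (Itgam with Itgb2) bind ICAM-1 and ICAM-2, or when VLA-4 (Itga4 with Itgb1) binds VCAM-1. Tumour necrosis factor and interleukin-1 induce E-selectin, ICAM-1 and VCAM-1 through the transcription factor NF-kB in many endothelial beds, and interleukin-4 and interleukin-13 induce VCAM-1 and P-selectin. In lung, neutrophils are slowed largely in capillaries, where rolling is not needed, while eosinophil entry in allergic models is known for its use of VCAM-1 and VLA-4. Icam1 is also made by alveolar type 1 epithelium, and Selp by megakaryocytes and platelets as well as by veins.

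In GENCODE M21 on GRCm38 (mm10), all 10 are protein-coding genes. Sele and Selp are neighbours on the plus strand of chromosome 1, at 164048234 to 164057677 and 164115264 to 164150026. Itgal (127296260 to 127335138) and Itgam (128062640 to 128118491) lie on the plus strand of chromosome 7. The others are Icam1 on chromosome 9 (21015985 to 21028817, plus), Icam2 on chromosome 11 (106377656 to 106388075, minus), Vcam1 on chromosome 3 (116109949 to 116129688, minus), Selplg on chromosome 5 (113818536 to 113832644, minus), Itga4 on chromosome 2 (79255426 to 79333123, plus) and Itgb2 on chromosome 10 (77530252 to 77565708, plus). Exons of Itga4 overlap those of Cerkl on the other strand over 1124 nt, and exons of Selp overlap those of the noncoding Gm16548 over 438 nt. Itgam shares 3450 nt of exons with the protein-coding Gm49368 on the same strand, which was not a row of the counts. The libraries were stranded, but the strand setting of the counting was not given in the sources used here, so that reads in these overlaps are uncertain.

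RefSeq promoter windows of GRCm38.p6, from 250 bases before to 50 after the RefSeq start, were found for 5 of the 10 genes. Those of Sele, Selp, Icam1 and Itgam are shown because the endothelial genes are known NF-kB targets and Itgam is known as a target of the myeloid factor PU.1. Capitals mark 3 motifs, each searched on both strands. NF-kB was searched in the relaxed form GGGNNNNNCC. PU.1 was searched as GAGGAA. The core promoter box was searched as TATAAA.
Sele chr1:164047984-164048283 (+ strand): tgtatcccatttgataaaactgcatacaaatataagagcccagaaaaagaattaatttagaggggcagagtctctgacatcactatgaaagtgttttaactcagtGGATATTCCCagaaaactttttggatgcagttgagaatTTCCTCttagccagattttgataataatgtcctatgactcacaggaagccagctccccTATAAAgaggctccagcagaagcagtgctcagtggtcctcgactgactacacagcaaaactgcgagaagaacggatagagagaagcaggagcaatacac
Selp chr1:164115014-164115313 (+ strand): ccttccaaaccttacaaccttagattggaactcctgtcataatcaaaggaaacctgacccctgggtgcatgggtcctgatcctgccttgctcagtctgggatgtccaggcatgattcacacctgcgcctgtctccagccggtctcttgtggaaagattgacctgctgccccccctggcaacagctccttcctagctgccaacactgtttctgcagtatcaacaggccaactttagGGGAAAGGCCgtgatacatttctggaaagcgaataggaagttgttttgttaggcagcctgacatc
Icam1 chr9:21015690-21015989 (+ strand): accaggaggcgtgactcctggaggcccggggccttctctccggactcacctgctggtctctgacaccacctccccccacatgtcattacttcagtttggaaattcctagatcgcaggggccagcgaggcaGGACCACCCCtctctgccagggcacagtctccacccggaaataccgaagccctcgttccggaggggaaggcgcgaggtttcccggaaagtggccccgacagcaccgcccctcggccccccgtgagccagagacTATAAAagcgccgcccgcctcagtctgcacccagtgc
Itgam chr7:128062390-128062689 (+ strand): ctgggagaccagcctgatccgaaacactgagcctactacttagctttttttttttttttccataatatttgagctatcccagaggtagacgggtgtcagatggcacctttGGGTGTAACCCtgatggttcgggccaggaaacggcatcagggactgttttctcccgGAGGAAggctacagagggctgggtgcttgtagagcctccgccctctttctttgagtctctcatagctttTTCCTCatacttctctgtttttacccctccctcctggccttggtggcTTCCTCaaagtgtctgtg
The NF-kB letters began 145 bases before the start in Sele (minus strand), 15 before it in Selp and 120 before it in Icam1 (minus strand), and these letters are found in 50.8% of 32851 such windows. Letters without the GGG of this form stay unmarked, such as tggaaattcc in the Icam1 window. The marked letters are therefore not to be read as the known NF-kB sites of these genes, which were not looked up. The box letters began 49 bases before the start of Sele and occur in 13.6% of windows. In Icam1 they began at base 14 with the RefSeq start counted as base 1, which is 32 bases before the GENCODE start. The Itgam window held GAGGAA letters at 3 places, beginning 84 bases before the start and, on the minus strand, 15 before and 32 after it. The Sele window held them too, beginning 107 bases before the start (minus strand), and at least 1 place is found in 28.3% of windows. The NF-kB match of Itgam reads on both strands with 9 shared letters. The window of Itga4 held none of these letters. A match is a description of letters and no evidence of binding.

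Per kilobase of the longest GENCODE transcript, the 10 genes spanned a wide range in lungs of the saline arm without PM. Levels are in CPM, counts scaled by trimmed means of M values to a common library size. The median level was 216 CPM per kb for both Icam1 and Icam2, 59.6 for Itgb2, 37.8 for Selplg, 17.0 for Vcam1, 11.4 for Itgal, 4.93 for Itgam and 3.31 for Itga4. The selectins came last, with 0.522 CPM per kb for Selp and 0.13 for Sele. Neighbours in this order whose 6 libraries overlapped, and which were thus not set apart by the spread, were Icam1 with Icam2, Itgb2 with Selplg, Vcam1 with Itgal, Itgam with Itga4, and Selp with Sele. In the OVA arm with PM the order differed, since Itgb2 (median 169 CPM per kb) stood between Icam1 (174) and Icam2 (128), although its libraries overlapped those of both.

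**Figure D1:**
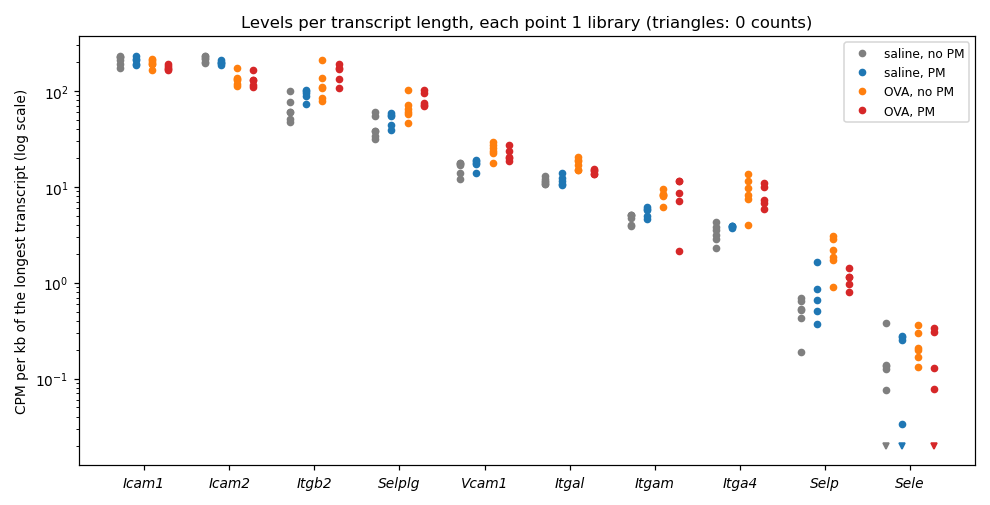
Levels in CPM per kb of the longest transcript (log axis) for the 10 adhesion genes, ordered by their level in the saline arm without PM; each point is 1 library and colours give the 4 groups. Icam1 and Icam2 lie near 200 CPM per kb in the saline arm, while Selp and Sele lie near or below 1, and 3 Sele libraries at 0 counts are drawn as triangles at the lower edge.

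Depth limits the selectins and some libraries. Library totals ran from 0.302 M counts (OVA with PM, replicate 4) to 28.013 M, and replicate 5 of that group (1.129 M) and replicate 4 of OVA without PM (1.841 M) also lay under 2 M. Sele was held by 0 to 22 counts per library and Selp by 1 to 152, and Itgam had 3 counts in the shallowest library. Replicate 2 of OVA without PM was the lowest of its group in Vcam1, Selp, Itga4, Itgal and Itgam and the highest in Icam1 and Icam2. The libraries with PM have sample numbers from another series than those without it, so that, within an arm, PM and a difference in preparation or run cannot be told apart.

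In lungs of the OVA arm without PM, 7 of the 9 tested adhesion genes rose against the saline arm without PM and 1 fell, while 23.6% of the 14632 genes tested were called in either direction (edgeR's quasi-likelihood test, adjusted p under 0.05). The genes that rose were Selp, Itga4, Itgb2, Itgam, Selplg, Vcam1 and Itgal, so that RNA of all 5 genes of the leukocyte side rose together with that of Vcam1 and Selp. Icam2 fell and Icam1 did not pass the test. The median log2 fold change was 0.67 over the 9 genes and -0.02 over all genes tested.

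Selp, which encodes P-selectin, had levels of 0.653 CPM (lowest), 1.79 (median) and 2.41 (highest) in the 6 saline-arm libraries and of 3.13, 6.99 and 10.5 CPM in the 6 OVA-arm libraries. The groups did not overlap, and the lowest OVA-arm value belonged to replicate 2. The log2 fold change was 1.86 ± 0.28 (SE, adjusted p = 0.000291 in edgeR), and 2.02 without replicate 2 of the OVA arm.

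Vcam1, the ligand of VLA-4, ranged over 49.7, 69.5 and 72.1 CPM (lowest, median, highest) in the saline arm and 72.8, 101 and 121 CPM in the OVA arm. Every OVA-arm library lay above every saline-arm library, with replicate 2 only just above. The log2 fold change was 0.63 ± 0.12 (adjusted p = 0.00148 in edgeR).

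Icam2, which resting endothelium and platelets carry without induction, ran the other way. Its levels were 251, 278 and 293 CPM in the saline arm and 145, 167 and 222 CPM in the OVA arm (lowest, median, highest), again without overlap. It fell by 0.66 on the log2 scale (SE 0.10, adjusted p = 0.000329 in edgeR).

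Icam1, the inducible ligand of LFA-1 and Mac-1, had overlapping levels of 439.7, 549 and 577 CPM in the saline arm and 420.0, 499 and 540.5 CPM in the OVA arm. The log2 fold change was -0.08 ± 0.09 (adjusted p = 0.597 in edgeR). Sele, which encodes E-selectin, did not pass the filter on low counts, with 32 counts summed over the 6 saline-arm libraries and 59 over the 6 OVA-arm libraries. Without the filter its log2 fold change was 0.78 (adjusted p = 0.212 in edgeR), so a change was not detectable at this depth.

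On the leukocyte side, Itga4, the alpha chain of VLA-4, had the largest log2 fold change, 1.46 ± 0.24 (adjusted p = 0.000479 in edgeR). It lay at 22.6, 32.4 and 41.5 CPM in the saline arm and at 38.5, 87.3 and 132 CPM in the OVA arm (lowest, median, highest). The groups met only through replicate 2 of the OVA arm, the one OVA-arm library below the highest saline-arm library.

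Itgb2, the beta chain shared by LFA-1 and Mac-1, averaged 194 ± 56.4 CPM in the saline arm and 357 ± 140.1 CPM in the OVA arm (SD, n = 6 each), and its log2 fold change was 0.89 ± 0.24 (adjusted p = 0.0141 in edgeR). Its highest OVA-arm value, 616 CPM, came from replicate 4, a library under 2 M counts, and the log2 fold change was 0.67 (adjusted p = 0.0219 in edgeR) without it. Itgam, the alpha chain of Mac-1, ranged over 18.2, 23.1 and 23.9 CPM in the saline arm and 29.0, 38.4 and 44.5 CPM in the OVA arm. Its groups did not overlap, and the log2 fold change was 0.81 ± 0.11 (adjusted p = 8.79e-05 in edgeR).

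Itgal, the alpha chain of LFA-1, lay at 55.4, 59.5 and 67.3 CPM in the saline arm and at 77.2, 92.0 and 107 CPM in the OVA arm, without overlap. Its log2 fold change of 0.62 ± 0.09 (adjusted p = 0.000208 in edgeR) was among the smaller ones with a small error. Selplg averaged 98.7 ± 27.7 CPM in the saline arm and 155 ± 44.0 CPM in the OVA arm (SD, n = 6 each), with overlapping libraries and a log2 fold change of 0.67 ± 0.20 (adjusted p = 0.0247 in edgeR). Its call was lost when replicate 1, 2 or 5 of the saline arm or replicate 6 of the OVA arm was left out, with log2 fold changes of 0.63, 0.63, 0.59 and 0.64 and adjusted p-values in edgeR of 0.0538, 0.0532, 0.0501 and 0.0531.

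**Figure D2:**
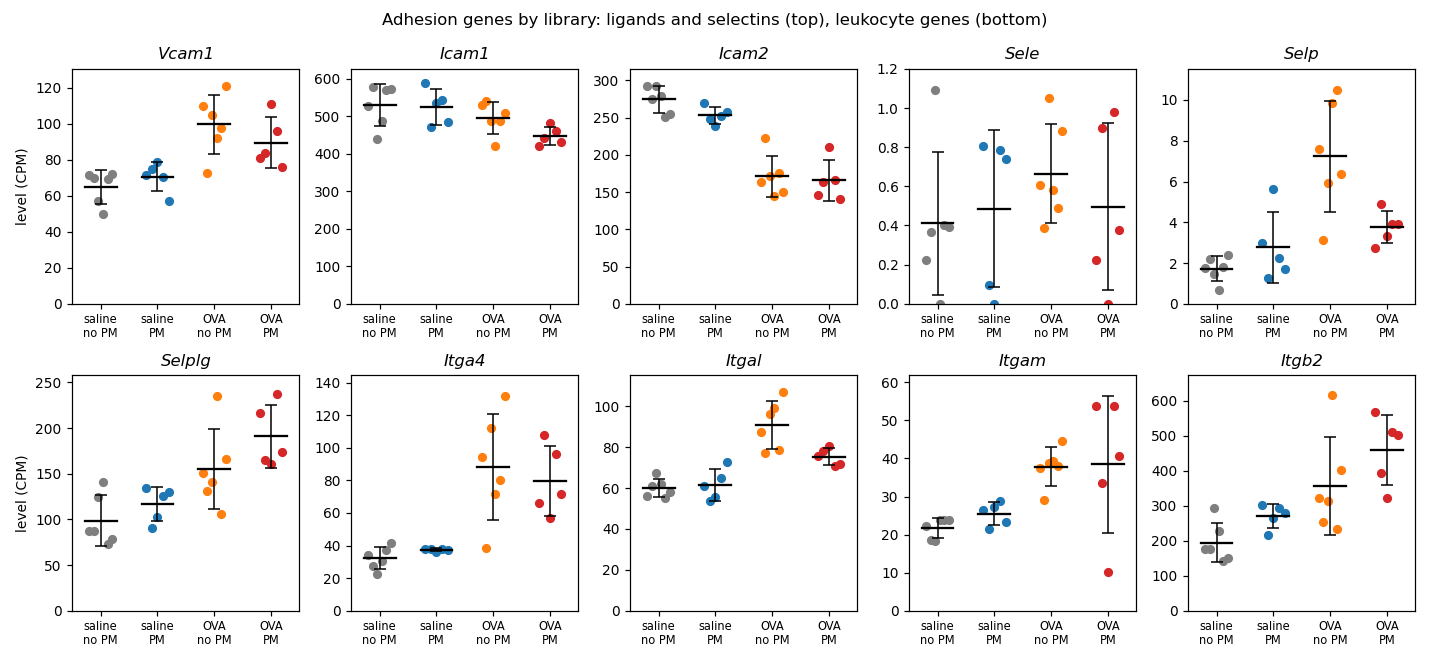
Levels in CPM of the 10 adhesion genes in the 22 libraries, with endothelial-side genes above and leukocyte-side genes below; points are libraries, bars the mean and SD of each of the 4 groups, and each panel has its own axis from 0. Selp is highest in the OVA arm without PM (3.13 to 10.5 CPM), Icam2 is lower in both OVA groups, and the low Itgam point of the OVA arm with PM, 10.1 CPM, holds 3 counts.

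The cell types in the tissue moved as well, and in bulk tissue fewer cells of a type and less RNA per cell cannot be told apart. All 6 pan-leukocyte markers (Ptprc, Cd53, Coro1a, Laptm5, Arhgdib and Cd52) were called higher in the OVA arm without PM, and their summed level went from 830.2 to 1319 CPM (median 979) to 1388 to 2301 CPM (median 1886). Of 12 endothelial markers, such as Pecam1, Cdh5 and Kdr, 8 were called lower and 0 higher, and their sum went from 3691 to 4751 CPM (median 4238) to 2077 to 3610.2 CPM (median 2894). Of the cell types that carry these integrins, 6 of 8 monocyte and interstitial macrophage markers, 6 of 6 B cell markers, 4 of 7 T cell markers and 3 of 3 tested eosinophil markers were called higher, whereas 1 of 7 neutrophil markers, 1 of 8 alveolar macrophage markers and 0 of 5 tested natural killer cell markers were. The summed alveolar macrophage level nevertheless went from 744 to 1973 CPM (median 929.7) to 1312 to 21483 CPM (median 6698). The median log2 fold change over those 8 markers was 0.12. Of alveolar type 1 markers 5 of 8 were called lower, and of 7 tested platelet and megakaryocyte markers 2 were lower and 0 higher. Over the 4 groups no marker in these lists had a mean of 1 count or less per library, and the same held for the other lists except for Klra8 among the 6 natural killer cell markers.

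Each leukocyte-side gene was divided, library by library, by the summed counts of the 6 pan-leukocyte markers. The median log2 ratio differed between the OVA arm and the saline arm without PM by -0.24 for Selplg, -0.25 for Itgal, -0.03 for Itgam, -0.03 for Itgb2 and 0.74 for Itga4, and the groups overlapped for each of the 5 genes. Divided by the 12 endothelial markers, the difference was 2.53 for Selp and 1.27 for Vcam1, without overlap between the groups, and 0.47 for Icam1 and -0.20 for Icam2, both with overlap. Undivided, the log2 fold changes were 1.86 for Selp, 0.63 for Vcam1, -0.08 for Icam1 and -0.66 for Icam2. The divisor itself was lower in the OVA arm. The 4 venous endothelial markers, not used as a divisor on their own, summed to 210.1 to 492 CPM (median 322) in the saline arm. In the OVA arm they summed to 209 to 468 CPM (median 339). The fall of Icam2 was thus accompanied by a median log2 fold change of -0.54 over the 12 endothelial markers, and the rises of Selplg, Itgal, Itgam and Itgb2 by one of 0.81 over the 6 pan-leukocyte markers. The part of cell numbers in these changes was not tested.

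**Figure D3:**
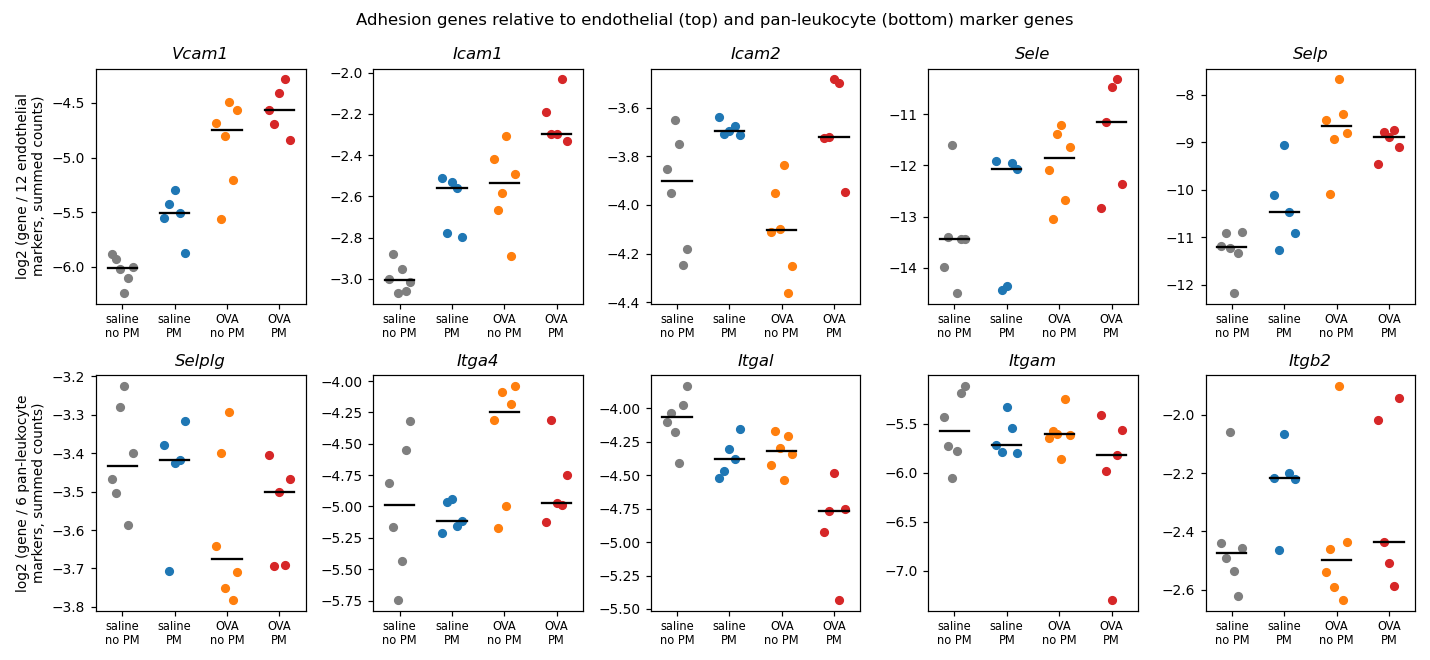
Log2 ratio of each adhesion gene to the summed counts of 12 endothelial markers (top row) or 6 pan-leukocyte markers (bottom row) in each of the 22 libraries; bars are group medians and each panel has its own axis. Vcam1 and Selp stay higher in the OVA arm without PM than in the saline arm without PM after this division, while Selplg, Itgal, Itgam and Itgb2 overlap between those groups. The endothelial sum was itself lower in the OVA arm without PM (median 2894 CPM) than in the saline arm without PM (median 4238 CPM).

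The comparison of the arms in the presence of PM used other libraries than the one without PM. Here 5 of the 9 tested genes rose, all of the leukocyte side, and 1 fell, against 22.8% of 14250 genes called, with a median log2 fold change of 0.68 over the 9 genes and -0.01 over all genes tested. Itga4 had the largest change among those called. Its levels were 37.6, 38.1, 35.9, 37.8 and 37.5 CPM in the saline arm (replicates 1, 2, 3, 5 and 6) and 65.9, 108, 57.0, 96.0 and 71.5 CPM in the OVA arm (replicates 1, 2, 4, 5 and 6), with no overlap. The log2 fold change was 1.13 ± 0.13 (adjusted p = 8.85e-06 in edgeR).

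Itgb2 lay at 301, 215, 264, 294 and 279 CPM in the saline arm with PM and at 568, 393, 322, 511 and 502 CPM in the OVA arm with PM, each OVA-arm library above each saline-arm library. Its log2 fold change was 0.79 ± 0.13 (adjusted p = 0.000338 in edgeR). Selplg lay at 134, 91.0, 103, 126 and 130.4 CPM in the saline arm and at 217, 165, 161, 237 and 174 CPM in the OVA arm, also without overlap, and rose by 0.71 ± 0.13 (adjusted p = 0.000502 in edgeR). Itgam rose by 0.75 ± 0.16 (adjusted p = 0.00251 in edgeR), although the shallowest OVA-arm library, with 3 counts, lay below all saline-arm libraries.

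Itgal rose by 0.27 ± 0.09 on the log2 scale (adjusted p = 0.0363 in edgeR), from 61.6 ± 7.66 CPM to 75.3 ± 4.19 CPM (SD, n = 5 each), and this call was lost without replicate 1, 2, 3 or 5 of the saline arm or replicate 1 or 2 of the OVA arm (log2 fold changes 0.22 to 0.29). It was also lost with DESeq2 (0.27, adjusted p = 0.0672), with scaling to library totals (0.20), without the filter (0.26), in a fit of all 4 groups (0.27) and with replicate numbers as a block (0.25). Icam2 fell by 0.67 on the log2 scale (SE 0.10, adjusted p = 7.69e-05 in edgeR), from 269, 248, 239, 252 and 257 CPM to 146, 164, 211, 166 and 141 CPM, without overlap.

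The 2 endothelial genes that rose without PM did not pass the test with PM. Selp lay at 2.96, 1.27, 5.64, 2.25 and 1.72 CPM in the saline arm and 2.72, 4.88, 3.35, 3.92 and 3.92 CPM in the OVA arm with PM, a log2 fold change of 0.68 ± 0.31 (adjusted p = 0.138 in edgeR). The highest value was that of replicate 3 of the saline arm, and without it the log2 fold change was 0.90 (adjusted p = 0.0263 in edgeR). Vcam1 lay at 71.7, 75.2, 78.7, 70.5 and 57.4 CPM against 81.3, 83.8, 111, 96.0 and 75.8 CPM, a log2 fold change of 0.26 ± 0.10 (adjusted p = 0.0733 in edgeR), which passed without replicate 6 of the OVA arm (0.32, adjusted p = 0.0471 in edgeR). Icam1 had a log2 fold change of -0.24 ± 0.09 (adjusted p = 0.0773 in edgeR), which passed without replicate 4 or 5 of the OVA arm, both under 2 M counts, and also with DESeq2, library totals and the length and GC offset (-0.26 without replicate 4, adjusted p = 0.046 in edgeR, and -0.25 without replicate 5, adjusted p = 0.0474 in edgeR). Sele summed to 38 counts over the 5 saline-arm libraries and to 19 over the 5 OVA-arm libraries with PM.

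Markers moved in this comparison too, with 6 of 6 pan-leukocyte markers called higher and 11 of 12 endothelial markers, 8 of 8 alveolar type 1 markers, 3 of 5 tested heart muscle markers and 2 of 5 tested natural killer cell markers called lower. Among other leukocyte types, 6 of 8 monocyte and interstitial macrophage, 5 of 6 B cell and 3 of 3 tested eosinophil markers were called higher. So were 3 of 7 T cell, 4 of 8 alveolar macrophage and 1 of 7 neutrophil markers, with 1 alveolar macrophage marker lower. The endothelial sum was 3093 to 3363 CPM in the saline arm with PM and 1881 to 2380.0 CPM in the OVA arm with PM. Relative to it, the median log2 ratio of Vcam1 was higher by 0.94 and that of Icam1 by 0.26 in the OVA arm, both without overlap, that of Selp by 1.58 with overlap, and that of Icam2 differed by -0.03. The divisor itself was lower in the OVA arm, without overlap. Undivided, the log2 fold changes were 0.261 ± 0.101 for Vcam1, -0.235 ± 0.092 for Icam1 and 0.678 ± 0.313 for Selp. None of these passed the edgeR test. Relative to the pan-leukocyte sum (1105 to 1398 CPM against 1840.3 to 3069 CPM), the differences were -0.08 for Selplg, 0.14 for Itga4, -0.39 for Itgal, -0.10 for Itgam and -0.22 for Itgb2, each with overlap. The part of cell numbers was not tested here either.

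**Figure D4:**
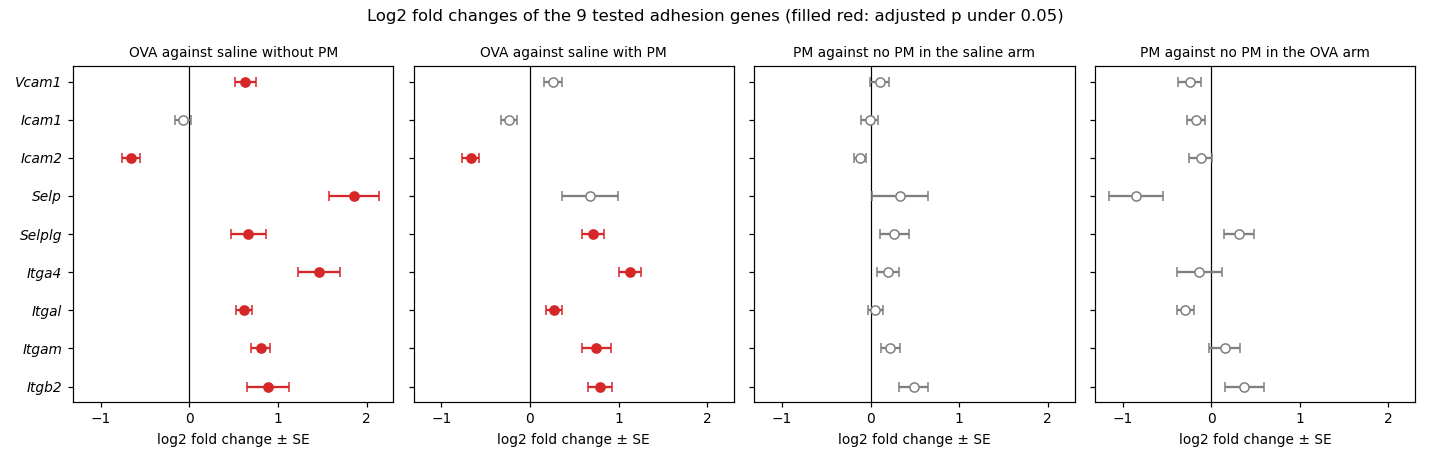
Log2 fold changes with their SE for the 9 adhesion genes tested, in the OVA comparisons without and with PM and in the PM comparisons of the saline and OVA arms; filled red points have an edgeR adjusted p under 0.05. Filled points are 8 without PM, 6 with PM and 0 in either PM comparison.

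PM itself was asked about in each arm. In the saline arm 0 of 9 tested adhesion genes passed the edgeR test, while 12.8% of 14496 genes were called. At an unadjusted edgeR p under 0.05 stood 1 of the 9 genes and 4664 of the 14496. With DESeq2, 1 adhesion gene and 2613 genes in all were called. The edgeR background of 1862 called genes went to between 490 (without replicate 5 of the PM group) and 4112 (without replicate 3 of the group without PM) with 1 library left out. The gene nearest to the threshold was Itgb2, with saline-arm levels of 142, 177 and 292 CPM (lowest, median, highest of 6) without PM and of 301, 215, 264, 294 and 279 CPM with PM. These levels overlapped through replicates 3 and 4 without PM, and the log2 fold change was 0.49 ± 0.16 (adjusted p = 0.0592 in edgeR). It passed without replicate 3 (0.64, adjusted p = 0.0036 in edgeR) or replicate 4 (0.54, adjusted p = 0.0444 in edgeR) of the group without PM, with DESeq2 (0.48, adjusted p = 0.0383) and with an offset for length and GC content of the transcript (0.57, adjusted p = 0.0386). In the authors' deposited table its log2 fold change for this comparison was 0.41 (adjusted p = 0.0385). The other 8 genes had log2 fold changes between -0.12 (Icam2) and 0.33 (Selp). Under the length and GC offset Icam2 passed with -0.22 (adjusted p = 0.0428), and Vcam1 and Icam1 turned sign at -0.05 and 0.10 without passing.

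The saline-arm comparison of PM shared its control libraries with the OVA comparison without PM. Of pan-leukocyte markers 3 of 6 were called higher and of endothelial markers 8 of 12 lower with PM, as were 2 of 3 tested venous endothelial markers and 1 of 6 heart muscle markers (median log2 fold change -1.09). Among leukocyte types, 3 of 3 tested eosinophil and 4 of 8 monocyte and interstitial macrophage markers were called higher. So were 2 of 6 B cell, 2 of 5 tested natural killer cell, 2 of 7 neutrophil, 2 of 8 alveolar macrophage and 0 of 7 T cell markers. Relative to the endothelial sum, the median log2 ratios of Vcam1 and Icam1 were higher by 0.50 and 0.45 with PM, in both cases without overlap between the groups. Undivided, the log2 fold changes of Vcam1 and Icam1 were 0.105 ± 0.107 and -0.011 ± 0.092 (adjusted p = 0.523 and 0.95 in edgeR). The endothelial sum itself went from 3691 to 4751 CPM (median 4238) without PM to 3093 to 3363 CPM (median 3236) with PM. Why the markers were lower was not tested.

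In the OVA arm 0 of 9 tested adhesion genes passed the edgeR test for PM, while 9.14% of 14657 genes were called, 332 higher and 1007 lower. At an unadjusted edgeR p under 0.05 stood 2 of the 9 genes and 4151 of the 14657. With DESeq2, 0 adhesion genes and 1585 genes in all were called. The edgeR background of calls rests on few libraries, since 0 genes of any kind were called without replicate 1 or replicate 6 of the PM group and 3396 without replicate 4 of the group without PM. Selp lay at 3.13, 6.99 and 10.5 CPM (lowest, median, highest of 6) without PM and at 2.72 to 4.88 CPM with PM, with a log2 fold change of -0.85 ± 0.30 (adjusted p = 0.0841 in edgeR). Without replicate 2 of the group without PM, its lowest library, the log2 fold change was -1.02 (adjusted p = 0.0225 in edgeR), and with scaling to library totals it was -0.95 and passed as well. Itgal lay at 77.2, 92.0 and 107 CPM without PM and 75.9, 78.0, 80.4, 70.6 and 71.6 CPM with PM, a log2 fold change of -0.29 ± 0.10 (adjusted p = 0.0656 in edgeR). It passed with library totals (-0.40) and without replicate 2 (-0.34, adjusted p = 0.0443 in edgeR) or replicate 4 (-0.28, adjusted p = 0.0487 in edgeR) of the group without PM. Under the length and GC offset the log2 fold change of Itgal was only -0.04 (adjusted p = 0.909 in edgeR).

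Itgb2 in the OVA arm had a log2 fold change of 0.38 ± 0.22 with PM (adjusted p = 0.276 in edgeR). The value depended on replicate 4 without PM, whose 616 CPM is the highest of its group, since it was 0.59 without that library (adjusted p = 0.017 in edgeR) and 0.67 without all 3 libraries under 2 M counts (adjusted p = 0.0177 in edgeR). Without replicate 4 Selplg also passed, at 0.45 (adjusted p = 0.0229 in edgeR), and without the 3 shallow libraries Icam1 passed, at -0.25 (adjusted p = 0.0479 in edgeR). With all libraries Selplg was at 0.31 ± 0.17 and Icam1 at -0.17 ± 0.10 (adjusted p = 0.24 and 0.277 in edgeR). Under the length and GC offset Icam1 was at -0.04. Vcam1 had a log2 fold change of -0.24 ± 0.13 (adjusted p = 0.223 in edgeR), and Icam2, Itga4 and Itgam were at -0.12 ± 0.13, -0.13 ± 0.25 and 0.16 ± 0.17. In the authors' deposited table none of the 10 genes had an adjusted p under 0.05 for PM in the OVA arm, with -0.52 (adjusted p = 0.0769) for Selp and -0.26 (adjusted p = 0.0659) for Itgal. Of endothelial markers 7 of 12 were called lower and of pan-leukocyte markers 0 of 6 were called. Also called lower were 2 of 4 venous endothelial markers, 3 of 9 fibroblast, smooth muscle and mesothelial markers and 5 of 6 heart muscle markers, the last with a median log2 fold change of -1.62. Their part in the values of the adhesion genes was not tested.

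Whether PM acted differently in the 2 arms was tested in a fit of all 4 groups, in which all 10 genes passed the filter and 0.0937% of 14942 genes were called. None of the 10 passed in edgeR, and 0 passed with DESeq2. At an unadjusted edgeR p under 0.05 stood 2 of the 10 genes and 571 of the 14942. The PM effect on Selp in the OVA arm minus that in the saline arm was -1.16 ± 0.46 on the log2 scale (unadjusted p = 0.0183, adjusted p = 1 in edgeR), and that on Itgal differed by -0.33 ± 0.13 (unadjusted p = 0.0198, adjusted p = 1 in edgeR). For the other 8 genes the difference lay between -1.05 ± 0.71 (Sele) and 0.06 ± 0.26 (Selplg). That Selp and Vcam1 passed the test in the OVA comparison without PM and not in that with PM is therefore not shown to be a difference between them.

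Genes around the adhesion cascade were counted from lists of general knowledge. Of 15 other vascular adhesion genes tested in the OVA arm without PM, 1 was called higher and 8 lower, with a median log2 fold change of -0.28. The one that rose was Ackr1, the chemokine-binding receptor of venules (3.35 ± 0.39, adjusted p = 3.13e-05 in edgeR). Ackr1 is also 1 of 4 venous endothelial markers, of which the other 3 (Nr2f2, Ephb4 and Vwf) were not called (median log2 fold change of the 4 0.01). Among those vascular genes that fell were the endothelial junction and surface genes Mcam (fell by 0.68, SE 0.12, adjusted p = 0.00117 in edgeR) and Esam (fell by 0.52, SE 0.12, adjusted p = 0.00702 in edgeR). With PM, 2 of 14 were higher and 8 lower, and Ackr1 rose by 1.76 ± 0.30 (adjusted p = 0.000409 in edgeR) between the arms, while Ephb4 fell and the other 2 venous markers were not called (median of the 4 -0.13).

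Of 15 other selectin and selectin ligand genes tested without PM, 5 were called higher and 2 lower. They included Spn, the leukocyte sialomucin CD43 (0.86), and 2 enzymes that build selectin-binding sugars, St3gal4 (0.48) and B4galt1 (0.45). Of 12 other leukocyte integrin subunits 3 were higher and 2 lower. Itgb7, the partner of the alpha-4 chain in the gut-homing integrin, rose by 0.68 and Itgax, the CD11c chain of dendritic cells and alveolar macrophages, by 1.62, whereas Itga1, a collagen-binding chain, fell by 0.57. Of 18 genes of integrin activation 9 were higher and 1 lower, among them Fermt3, which encodes the haematopoietic kindlin (0.98), Fyb (0.69), an adaptor in T cells, and Rasgrp1 (0.87), an exchange factor of lymphocytes. These values are log2 fold changes with adjusted p-values in edgeR from 5.43e-05 (Fermt3) to 0.00158 (Itgax). With PM the counts were 5 higher and 1 lower of 14, 2 and 2 of 12, and 9 and 3 of 18.

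Of 12 tested cytokine and receptor genes that act on endothelial adhesion molecules, 5 were called higher and 0 lower in the OVA arm without PM, among them Tnf (1.23 ± 0.19, adjusted p = 0.000352 in edgeR) and Lta (1.90 ± 0.32, adjusted p = 0.000615 in edgeR), which encode tumour necrosis factor and lymphotoxin alpha, and Ifngr2, a chain of the interferon-gamma receptor (0.70, adjusted p = 0.000749 in edgeR). With PM, 4 of 12 were higher and 0 lower, with 1.52 for Lta and 0.69 for Ifngr2, and Tnf was not among those called. PM in the saline arm was accompanied by a rise of Tnf (1.55 ± 0.25, adjusted p = 0.00403 in edgeR), and 3 of 11 genes of this list were higher and 2 lower. The other lists gave 0 higher and 4 lower of 13 vascular genes, 3 and 1 of 15 selectin-related genes, 1 and 1 of 12 integrin subunits, and 2 and 3 of 18 activation genes in that comparison. Chst2, a sulphotransferase that completes L-selectin ligands, fell by 0.80 (SE 0.14, adjusted p = 0.00587 in edgeR). Among the genes the naming rule selected in this comparison, the calls of Tnf and Chst2 held in all 19 alternatives run. Those of Il1b (under the length and GC offset) and of Cd44, Itgax, Cytip, Esam, Tln1, Mcam, Il1a, Itgb5, Sipa1, Pecam1 and Cd24a (each with at least 1 library left out) did not.

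In the OVA arm PM gave lower calls in these lists, 4 of 15 vascular genes, 1 of 14 selectin-related genes, 3 of 12 integrin subunits, 3 of 18 activation genes and 3 of 13 cytokine and receptor genes, against 1 higher call in all, Il4 (1.09 ± 0.32, adjusted p = 0.044 in edgeR). Of all genes called there, 332 were higher and 1007 lower, and without replicate 1 or 6 of the PM group 0 genes were called, these included. Alternatives were run for 5 of the lower genes, named after their values were seen. Of 20 alternatives each, the call was lost for Chst2 in 9 that left out a library and 3 others, for Pecam1 in 6 and 2, for Tln1 in 7 and 1, for Mcam in 3 and 2, and for Sipa1 in 3 and 1. Among genes of these lists the PM effect was called different between the arms for Tnf alone, by -1.82 ± 0.36 (adjusted p = 0.0366 in edgeR). That call was lost without 14 of the 22 libraries in turn and without the 3 shallow libraries (adjusted p = 0.0863 in edgeR).

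Each of the 10 genes was also set beside the 3 genes with the most similar profile, by the root mean square (RMS) difference of centred log2 CPM over the 22 libraries. Selplg ran closest to Slc15a3, Arhgdib and Rab32 (RMS difference 0.12 to 0.14, against a spread of 0.48 of Selplg itself), of which Arhgdib is one of the pan-leukocyte markers. Itgb2 ran closest to Ctsz, Cd68 and Csf2rb (0.12 to 0.14, own spread 0.58), and Itgam to Camk1d, Syk and Plcl2 (0.21 to 0.22, own spread 0.55). Itga4 was nearest to Ikzf3, Arid3a and Kcnab2 (0.22 to 0.26, own spread 0.72), and Itgal to Rassf5, a gene of the activation list, Il10ra and Fes (0.15 to 0.16, own spread 0.28).

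On the endothelial side Icam2 was nearest to Igfbp2, Tspan15 and the endothelial marker Egfl7 (0.12 to 0.13, own spread 0.37). Vcam1 was nearest to Rrbp1, Uggt1 and Fstl1 (0.15 to 0.16, own spread 0.32), and Icam1, whose own spread was 0.15, to Acly, Tpm1 and Traf7 (0.10). Selp was nearest to Chek1, Kif24 and Serpina3i at the larger distances of 0.47 to 0.52, and Sele to Car7, Stag3 and Fgd3 at 0.57 to 0.66, where counting noise is large. Within the 10 genes the closest pair was Selplg and Itgb2 (0.18), followed by Vcam1 and Itgal (0.25). These distances describe 22 libraries that share the 4 groups, and depth and cell make-up enter them.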

How the data were processed

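RNA of 22 lung libraries in 4 groups was analysed. Per the labels' protocols, stranded libraries were made from polyadenylated RNA and sequenced from 1 end. The submitters' processing notes name bcl2fastq and the mm10 build, and the aligner and counter are not given in the sources used here. Raw read counts per gene, as deposited by the authors, were used for all tests. Log2 fold changes and adjusted p-values from the authors' deposited table, so named in the file headers, were quoted only where stated. The count tables shared 12 library columns, all 12 identical, and 16 of 24421 rows, whose names a spreadsheet had turned into dates (0.152% to 0.195% of counts), were left out. Library totals were 0.302 to 28.013 M counts (median 12.54), and no replicates were near copies (chi-square per degree of freedom 2.63 to 84.88).

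Each pair of groups was filtered (edgeR filterByExpr, minimum count 10, total 15), scaled by TMM and given to edgeR's quasi-likelihood F test, with Benjamini-Hochberg adjustment over all genes at 0.05. The difference between arms was tested in a fit of all 4 groups. SE is the log2 fold change over the square root of F. Profiles used log2 CPM with a prior count of 2 and, as neighbours, genes averaging 1 CPM or more. Of gene names, 23361 were matched to GENCODE M21.

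The 10 genes, the lists, the markers and the tests were chosen with earlier results of these data known. All 10 genes were named, and per list the 3 called genes with the smallest p in the OVA comparison without PM and in the PM comparison of the saline arm. Alternatives were DESeq2, its size factors, library totals, no filter, 1 CPM in 5 libraries, all groups in 1 fit, replicate numbers as a block, an offset for length and GC content (natural splines, 4 degrees of freedom, fitted by library to genes of at least 10 CPM), and leaving out libraries under 2 M counts or each library in turn. The steps were tested on simulated data. Deviations of same-numbered libraries correlated in some pairs and not in others, which does not settle whether the numbers mark a pairing. The numbers are not stated to mark shared animals or days, so they were not used as pairs in the main fits. Software was R 4.3.3, edgeR 4.0.16, limma 3.58.1, DESeq2 1.42.0, Python 3.11.15, pandas 2.3.3, numpy 2.4.6 and matplotlib 3.10.9.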

Additional observations from a re-analysis of the deposited data

Results flagged for a closer look

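Each of the 10 genes was screened for a library far from the others in each of the 4 groups, by the gap to the nearest library over the whole range against Dixon's critical value. Of the 40 sets of libraries, 2 held such a library, and by the construction of that value chance gives about 1 in 20. In the saline arm without PM, Sele in replicate 3 stood at 1.09 CPM, which rests on 6 counts, while the other libraries lay between 0 and 0.403 CPM. In the saline arm with PM, Itga4 in replicate 3 stood at 35.9 CPM (121 counts), below the other 4 libraries at 37.5 to 38.1 CPM. That group had the smallest spread of Itga4 of all groups, with an SD of 0.855 CPM.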

How the results depend on the processing

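In the OVA comparison without PM, 8 adhesion genes passed in each alternative that kept all libraries or left out the shallow ones, and 7 or 8 with 1 library left out. The calls of all genes numbered 3456 there, of which 60.8% were higher, against 47.1% of 4735 with the length and GC offset. With PM, 6 adhesion genes passed, and 5 to 7 with 1 library left out; with library totals the higher share was 44% against 58% of all calls.

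For PM in the saline arm, the count of adhesion genes called went from 0 to 1 with DESeq2 and with the replicate block, to 2 with the length and GC offset, and to between 0 and 1 with 1 library left out. All calls went from 1862 to 3193 with the replicate block and to between 490 and 4112 with 1 library left out. For PM in the OVA arm, adhesion genes called went from 0 to 2 with library totals, to 2 without the libraries under 2 M counts, and to between 0 and 3 with 1 library left out (3 without replicate 4 and 2 without replicate 2 of the group without PM). All calls there went from 1339 to 2054 with library totals (8.96% higher instead of 24.8%, with the median of all genes at -0.11), 565 with the replicate block, 3472 without the shallow libraries, 190 with the offset, and between 0 (without replicate 1 or 6 of the PM group) and 3396 (without replicate 4 of the group without PM). Calls of a difference between arms went from 14 to 24 with DESeq2 and to between 8 and 27 with 1 library left out.

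Deviations of same-numbered libraries correlated at -0.269 to 0.722, above 0.1 in some pairs only. Differently numbered libraries were not compared in this way, so whether the numbers mark a pairing or a shared batch is not settled. With the replicate block all calls in the OVA comparison without PM went from 3456 to 4238. Itgb2 then passed for PM in the saline arm (0.58, adjusted p = 0.0238 in edgeR), Vcam1 passed in the OVA comparison with PM (0.29), and Itgal lost its call there.

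Of 1008 values of adhesion genes under alternatives, 34 changed sign, none of them called. These were, for PM in the saline arm, Vcam1 (-0.052) and Icam1 (0.099) with the offset, and, for the difference between arms, Icam2 with DESeq2 (-0.01), library totals (-0.073), the shallow libraries left out (-0.139) and the offset (-0.059), Selplg with library totals (-0.024) and Itgb2 without the shallow libraries (0.173). With 1 library left out, Icam1 ranged from -0.055 to 0.028 and Itgal from -0.017 to 0.102 for PM in the saline arm, Itga4 from -0.295 to 0.022 for PM in the OVA arm, and the differences between arms from -0.048 to 0.107 for Icam2, -0.056 to 0.194 for Selplg, -0.209 to 0.045 for Itgam and -0.238 to 0.126 for Itgb2. A further 15 values lost and 24 gained a call, and the cause was not tested. Depth limits Sele in all libraries, Selp, which had 1 or 2 counts in its poorest libraries, and Itgam, with 3 counts in the shallowest.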
